A study of Saccharomyces cerevisiae with 6 samples.

Results

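The galactose regulon is the set of yeast genes that the activator Gal4 switches on in galactose, and it is described here with the phosphoglucomutase genes that connect galactose breakdown to glycolysis. The members were 10 named genes, taken by their symbols, and 9 of them had a listed probe set among the 5449 genes of Saccharomyces cerevisiae on the array (GAL1, GAL2, GAL3, GAL7, GAL10, GAL80, GCY1, PGM1 and PGM2). GAL4 had no listed probe set and was not analysed here. Each of the 9 genes had 1 probe set.

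RNA came from cells grown in galactose medium without uracil that had overexpressed either the tag protein GST alone (the GST group) or Med3 fused to GST (the Med3-GST group, GST-med3 in the labels) for 48 h. There were 3 biological replicates per group, lettered A to C, with 1 Affymetrix Yeast Genome 2.0 Array for each. Values below follow that order of letters. In both groups the overexpressed protein was encoded on a plasmid, from the promoter region that GAL1 and GAL10 share, so that the control cells also carried extra copies of a Gal4-dependent promoter. The overexpression strains that the study lists were derived from the haploid BY4741, which carries deletions in his3, leu2, met15 and ura3. Those listed with the GST or Med3-GST plasmid also carried a tagged Mediator subunit, either Med18 with a FLAG tag or Med3 with GFP. Which of them gave the RNA is not stated. The titles of the GST arrays carry the digits of the BY4741 name, although no label states the strain in words. The arrays addressed whether overexpressed Med3 alters transcription across the genome. Med3 belongs to a part of Mediator that Gal4 contacts.

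In galactose metabolism, the permease Gal2 brings the sugar into the cell, and the kinase Gal1, the transferase Gal7 and the epimerase Gal10 turn it into glucose-1-phosphate. Phosphoglucomutase, of which Pgm2 is the major and Pgm1 the minor form, then makes glucose-6-phosphate. Without galactose the inhibitor Gal80 masks Gal4. The sensor Gal3, a relative of Gal1 without its kinase activity, binds galactose and relieves that block. Gcy1, an aldo-keto reductase that takes part in glycerol metabolism, is another known target of Gal4. The promoters of GAL genes are repressed when glucose is present.

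MED3, which is listed on the array as PGD1, had log2 signals of 8.24, 8.01 and 8.07 with GST and a mean of 11.81 ± 0.07 (SD, n = 3) with Med3-GST, so the labels held for the overexpressed gene. Its probe set does not separate the plasmid copy from the chromosomal gene. URA3, which selects for the plasmid, had a mean log2 signal of 13.87 ± 0.06 with GST and 13.59 ± 0.05 with Med3-GST (SD, n = 3 each) and passed the test as lower. MET17, which is deleted in BY4741 under the name MET15, was at the level of the probe sets for S. pombe, another yeast species (mean of 6.37 in either group, against a 95th percentile of 7.49 for S. pombe). LEU2 and HIS3, also deleted in BY4741, gave means of 10.92 and 10.48 with GST, and LEU2 fell by 0.44 while HIS3 did not pass the test as deposited (0.037). After the centring described below, HIS3 and MET17 were called higher, with log2 differences of 0.13 (limma, adjusted p = 0.000594) and 0.094 (adjusted p = 0.0172). As deposited the MET17 difference was -0.001, and the median difference of the S. pombe probe sets was -0.0011. Centring shifts every probe set of an array alike, also those at background level. The MET17 call appeared with that shift and is no measure of a transcript. Of the mating-type genes, the a-cell genes MFA1 and MFA2 were far above that level (means of 11.49 and 12.03 with GST), and the alpha-factor genes MF(ALPHA)1 and MF(ALPHA)2 were below it (6.64 and 6.61). The alpha-cell genes STE3 and SAG1 lay above it (8.41 and 8.76 with GST).

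Signals were compared on the log2 scale as deposited, with limma (two-sided, p-values adjusted by Benjamini-Hochberg over 5498 probe sets, threshold 0.05). The median of all probe sets was 0.085 lower in Med3-GST than in GST cells, and 0.01 higher once every array had been shifted to a common median (called centring here). For each gene the value after centring is therefore given beside the value as deposited where the call or direction of a member turns on it. In bulk cultures, fewer cells expressing a gene and less RNA per cell cannot be told apart. The model gave all probe sets the same standard error of 0.05 as deposited. Of all probe sets, 47.8% were called lower and 27.1% higher with Med3-GST, together 74.9%, and in 75% the arrays of the groups did not overlap (48.4% lower, 26.6% higher).

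Among the 9 genes, 5 were called lower (GAL10, GAL80, GCY1, PGM1 and PGM2), 1 was called higher (GAL3) and 3 did not pass the test (GAL1, GAL2 and GAL7). The counts follow the order of the shares over all probe sets, with more lower than higher. The groups did not overlap for 5 of the 9 members (4 lower and 1 higher), a smaller share than over all probe sets. After centring, 4 members were called lower and 3 higher, beside 41.7% and 43.6% of all probe sets (85.3% in either direction). The median log2 difference of the 9 genes was -0.13 (Med3-GST minus GST), against -0.085 for all probe sets. None of the members changed by 2-fold, as 1.84% of all probe sets did. The members differed from each other in direction and size, and 4 of them (GAL3, GCY1, PGM1 and PGM2) passed the test in the same direction under every alternative scaling and variance setting and without any single array.

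**Figure D1:**
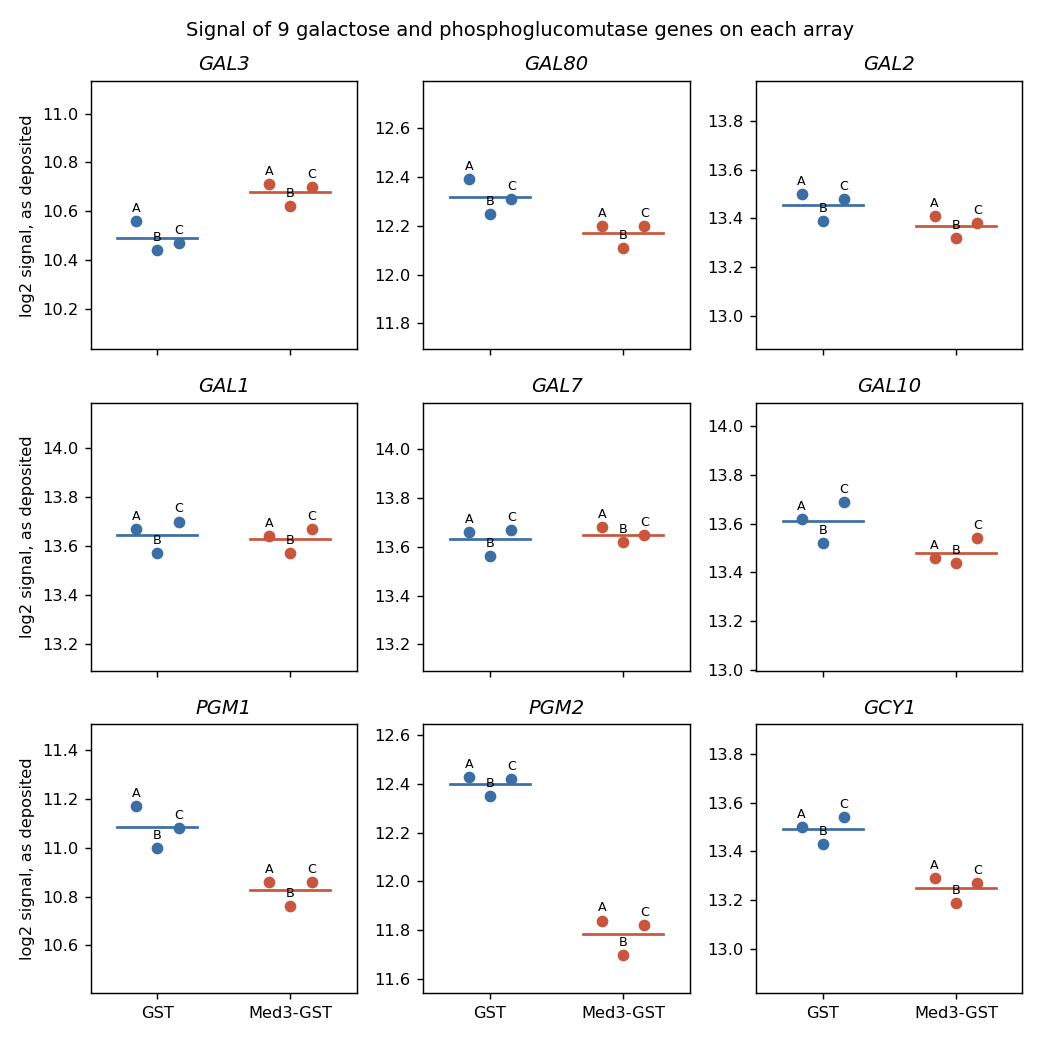
Log2 signal as deposited (vertical axis, spanning the same range in each panel) of the 9 genes on each of the 6 arrays. Points are replicates A, B and C of cells with GST (blue) or Med3-GST (red) and lines are group means. The groups are apart for GAL3, GAL80, GCY1, PGM1 and PGM2 and overlap for GAL1, GAL2, GAL7 and GAL10, and replicate B is the lowest of its group in every panel.

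The structural genes of galactose uptake and breakdown had log2 differences of -0.13 (GAL10) to 0.018 (GAL7), and only GAL10 passed the test. GAL1, the galactokinase gene, had log2 signals of 13.67, 13.57 and 13.70 with GST and 13.64, 13.57 and 13.67 with Med3-GST. The arrays of the groups overlapped. The log2 difference was -0.018, with a 95% interval from -0.12 to 0.080 (limma, adjusted p = 0.748). After centring it was 0.077 and passed the test as higher (adjusted p = 0.0137), so that its direction depends on the scaling of the arrays.

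GAL7, the gene of the uridylyltransferase, also moved with the scaling. Its log2 signals were 13.66, 13.56 and 13.67 with GST and 13.68, 13.62 and 13.65 with Med3-GST, which overlapped. Its log2 difference was 0.018 as deposited (95% interval -0.080 to 0.12, limma adjusted p = 0.748) and 0.11 after centring (adjusted p = 0.00172). GAL2, the permease gene, had 13.50, 13.39 and 13.48 with GST and 13.41, 13.32 and 13.38 with Med3-GST. Its groups overlapped, and its log2 difference was -0.087 as deposited (95% interval -0.19 to 0.011, adjusted p = 0.104) and 0.008 after centring (limma, adjusted p = 0.766). Without GST replicate B it passed the test as lower (-0.12, adjusted p = 0.03).

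GAL10, which encodes the epimerase and shares its promoter region with GAL1, passed the test as deposited. Its log2 signals were 13.62, 13.52 and 13.69 with GST and 13.46, 13.44 and 13.54 with Med3-GST. The highest Med3-GST array lay above the lowest GST array. The log2 difference was -0.13 (95% interval -0.23 to -0.030, limma adjusted p = 0.0147), but after centring it was -0.033 and the call was lost (adjusted p = 0.376). The call was also lost with the gene's own variance in place of the common one (adjusted p = 0.125), without GST replicate C (-0.087, adjusted p = 0.21) and without Med3-GST replicate A (-0.12, adjusted p = 0.0737).

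The 3 enzyme genes lie side by side on chromosome II, in the order GAL7, GAL10 and GAL1. Genes beside this cluster differed from each other. KAP104, a nuclear import receptor gene beside GAL7, had a log2 difference of 0.005 and did not pass the test, and after centring it was higher (0.10). FUR4, the uracil permease gene on the other side, next to GAL1, rose by 0.25, and POA1, a phosphatase gene one place further on, fell by 0.32. KAP104 and POA1 were added after their values were seen.

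These bright probe sets lay near the top of the range that the arrays recorded. The GAL1 signal was 0.36 to 0.41 below the brightest probe set of the same array (log2), and that of GAL7 was 0.32 to 0.42 below. Among the 38 probe sets at least as bright as GAL10, the SD of the log2 differences between groups was 0.087 and the largest decrease was -0.27, whereas over all 5498 probe sets the SD was 0.376. Among the 194 probe sets with a mean log2 signal of at least 13, which include GAL1, GAL2, GAL7, GAL10 and GCY1, the largest decrease was -0.91 and none was 2-fold. How far the upper end of the signal range limited the differences of the GAL genes was not tested.

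**Figure D2:**
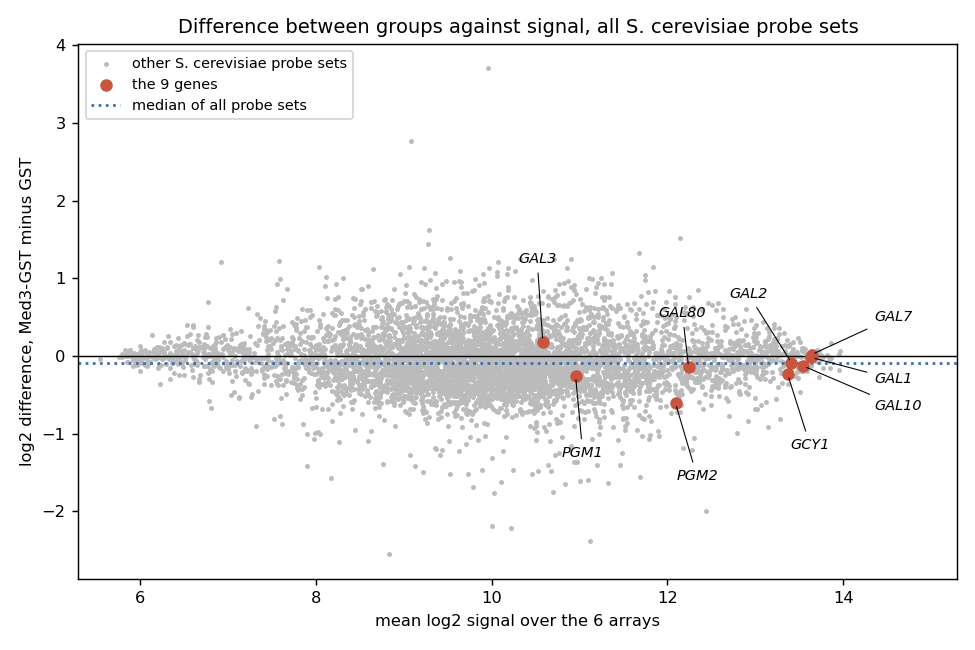
Log2 difference between the groups (vertical axis, Med3-GST minus GST) against the mean log2 signal over the 6 arrays (horizontal axis) for 5498 probe sets. The differences narrow toward the bright end, where GAL1, GAL2, GAL7, GAL10 and GCY1 lie, and PGM2 (-0.61) lies farthest below zero among the 9 genes.

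The genes of the regulatory switch moved apart. GAL3, the sensor gene, was the only member called higher as deposited. Its log2 signals were 10.56, 10.44 and 10.47 with GST and 10.71, 10.62 and 10.70 with Med3-GST. Every Med3-GST array was above every GST array. Its log2 difference was 0.18 (95% interval 0.086 to 0.28, limma adjusted p = 0.000397), a 1.14-fold increase, and 0.28 after centring. Of all probe sets, 20.2% had a larger increase.

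GAL80, the gene of the inhibitor, had log2 signals of 12.39, 12.25 and 12.31 with GST and 12.20, 12.11 and 12.20 with Med3-GST. The groups did not overlap, although the lowest GST array and the highest Med3-GST arrays were close. The log2 difference was -0.15 as deposited (95% interval -0.25 to -0.049, limma adjusted p = 0.00491) and -0.052 after centring (adjusted p = 0.0444). Subtraction of the S. pombe background before centring ended the call (-0.048, adjusted p = 0.0712), and so did the gene's own variance in place of the common one (adjusted p = 0.0646) and leaving out GST replicate A (-0.11, adjusted p = 0.0569).

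Offsets between arrays cancel when 2 genes are compared within each array, and 5 such pairs were compared after their values had been seen. Relative to GAL80, GAL3 was higher by 0.33 (log2) in Med3-GST cells, with 0.34, 0.33 and 0.32 on the Med3-GST arrays, measured against the mean of the GST arrays, which themselves lay between -0.02 and 0.02. Relative to GAL1, GAL3 was higher by 0.20. GAL10 had a change of -0.11 relative to GAL1, with -0.14, -0.09 and -0.10 on the Med3-GST arrays and -0.02, -0.02 and 0.03 on the GST arrays. In these comparisons the arrays of the groups did not overlap. Each gave p = 0.1 in the exact permutation test (two-sided, n = 3 each, adjusted p = 0.1 over the 5 pairs), which is the smallest p that 3 arrays against 3 allow. The share of other gene pairs without overlap was not computed. With array offsets removed by centring, the groups did not overlap in 2322 (lower) and 2376 (higher) of 5498 probe sets. Absence of overlap is therefore common and does not set these pairs apart.

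The phosphoglucomutase genes fell. PGM2, the gene of the major form, had the largest difference of all members. Its log2 signals were 12.43, 12.35 and 12.42 with GST and 11.84, 11.70 and 11.82 with Med3-GST. The groups were far apart compared with the spread within them. Its log2 difference was -0.61 (95% interval -0.71 to -0.51), a 1.52-fold decrease, and -0.51 after centring. Only 4.89% of all probe sets had a larger decrease.

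PGM1, the gene of the minor form, had log2 signals of 11.17, 11.00 and 11.08 with GST and 10.86, 10.76 and 10.86 with Med3-GST. Again the groups did not overlap. The log2 difference was -0.26 (95% interval -0.35 to -0.16), a 1.19-fold decrease, and -0.16 after centring. Of all probe sets, 29.4% had a larger decrease than PGM1. Within arrays, PGM2 had a log2 change of -0.35 relative to PGM1 (-0.33, -0.37 and -0.35 on the Med3-GST arrays, -0.05, 0.03 and 0.02 on the GST arrays, exact permutation p = 0.1, n = 3 each).

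GCY1 had log2 signals of 13.50, 13.43 and 13.54 with GST and 13.29, 13.19 and 13.27 with Med3-GST, and the groups did not overlap. Its log2 difference was -0.24 (95% interval -0.34 to -0.14), a 1.18-fold decrease, and -0.14 after centring. A larger decrease was seen in 31.8% of all probe sets. The GCY1 paralogue YPR1, which encodes another aldo-keto reductase, fell by 0.40, and relative to YPR1 within arrays GCY1 was higher by 0.16 (exact permutation p = 0.1, n = 3 each). The YPR1 probe set was dimmer, with a mean log2 signal of 12.08 with GST.

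**Figure D3:**
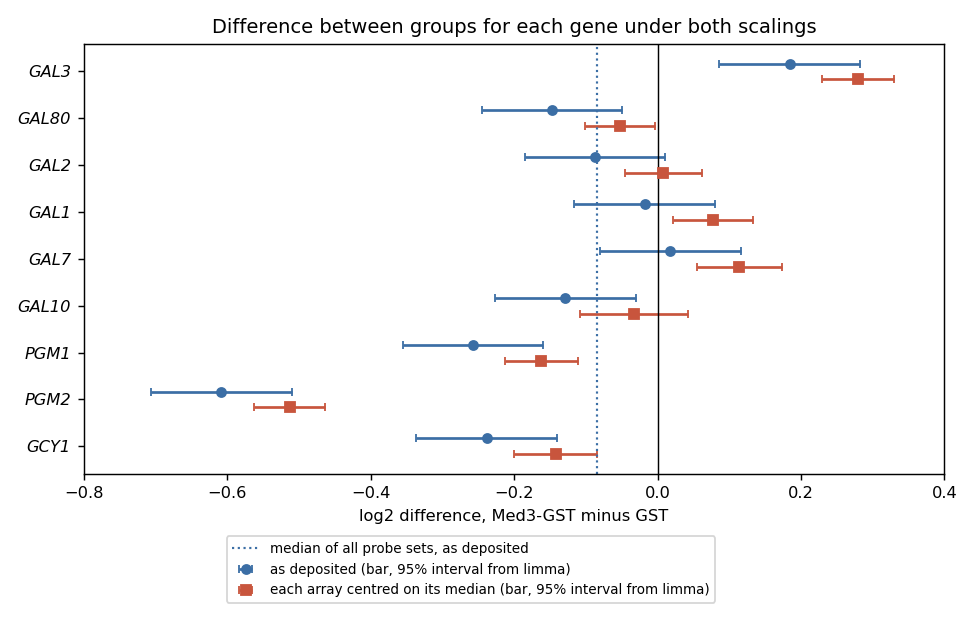
Log2 difference between the groups (horizontal axis, Med3-GST minus GST) for the 9 genes, as deposited (circles) and with arrays shifted to a common median (squares), with 95% intervals from limma. The intervals of GAL3, GAL80, GCY1, PGM1 and PGM2 exclude zero under both scalings on the same side (GAL80 barely after centring, with an upper bound of -0.004), and those of GAL1, GAL7 and GAL10 exclude it under 1 scaling only.

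The genes whose pattern over the 6 arrays was closest to that of PGM2 were BNA4, UBP2, DCS1, YNK1 and MPH1. Their log2 deviations from their own GST mean differed from those of PGM2 by a root mean square of 0.0111 to 0.0181, and their log2 differences between the groups were -0.59 to -0.63. BNA4 encodes an enzyme of NAD synthesis, UBP2 a ubiquitin protease, DCS1 a protein of mRNA cap turnover, YNK1 a nucleoside diphosphate kinase and MPH1 a DNA helicase.

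The listed genes around the phosphoglucomutases fell together. Of 10 genes that handle glucose phosphates, UDP-glucose, glycogen and trehalose, all 10 were called lower, with a median log2 difference of -0.55, and all 10 were also lower after centring. GSY2, the major glycogen synthase gene, fell by 1.07, PGM3, a related mutase gene listed as PRM15, fell by 0.57, and the trehalose synthesis genes TPS1 and TPS2 fell by 0.57 each. UGP1, which makes the UDP-glucose that Gal7 uses, had log2 signals of 12.66, 12.54 and 12.59 with GST and 12.26, 12.12 and 12.21 with Med3-GST and fell by 0.40. Of the genes for hexose phosphorylation and glucose-6-phosphate use, HXK1 fell by 0.56, GLK1 by 0.34, ZWF1 by 0.32 and PGI1 by 0.25. HXK2, the gene of hexokinase 2, stood in the glucose repression list and did not pass the test (-0.056, limma adjusted p = 0.304). After centring its log2 difference was 0.039 (adjusted p = 0.136). UGP1, HXK1, HXK2, GLK1, ZWF1 and PGI1 were named after their values were seen. The list was chosen with earlier results of these data known, and 47.8% of all probe sets were lower.

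The other aldo-keto reductase genes resembled GCY1 in direction. All 5 were called lower, as deposited and after centring, beside 47.8% and 41.7% of all probe sets, with a median of -0.62 as deposited. YJR096W fell by 1.21, from 12.89 ± 0.06 to 11.68 ± 0.08 (mean log2 signal, SD, n = 3 each). ARA1, an arabinose dehydrogenase gene, fell by 0.68 and the aldose reductase gene GRE3 by 0.62. GCY1 had the smallest decrease of the 6 aldo-keto reductase genes apart from YDL124W, whose log2 difference was -0.22 (named after its value was seen). GCY1 and YDL124W also had the brightest probe sets of the 6 (means of 13.488 and 13.435 with GST), in the range where differences narrow. Whether brightness affected that ranking was not tested.

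Genes outside the classical regulon that have been linked to Gal4 or named for galactose went in both directions. MTH1, a regulator of hexose transporter genes, had log2 signals of 9.72, 9.69 and 9.65 with GST and 10.50, 10.44 and 10.52 with Med3-GST, and it rose by 0.80. BLH1, a bleomycin hydrolase gene also called GAL6 and listed as LAP3, rose by 0.61 and FUR4 rose by 0.25. PCL10, the gene of a cyclin of the kinase Pho85 that acts in glycogen metabolism, fell by 0.72. For all 4 genes the groups did not overlap, as in 75% of all probe sets, and the call was the same after centring. Of all probe sets, 74.9% were called in either direction before centring and 85.3% after it.

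Of 15 genes of the glucose repression pathway that acts on GAL promoters, 4 were called higher and 9 lower, with a median log2 difference of -0.15. Over all probe sets these shares were 27.1% and 47.8%. MIG1, the gene of the repressor that binds GAL promoters in glucose, had log2 signals of 8.67, 8.58 and 8.60 with GST and 9.31, 9.25 and 9.34 with Med3-GST, and rose by 0.68. Its relative MIG2 rose by 0.93, from a mean of 7.09 with GST that lay within the range of the S. pombe background, which leaves the size of the rise uncertain. REG1 and GLC7, which encode the regulatory and catalytic subunits of the phosphatase that counteracts the kinase Snf1, fell by 0.51 and 0.41. After centring, 5 genes of this list were higher and 7 lower, beside 43.6% and 41.7% of all probe sets.

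Of 10 genes for Mediator and SAGA subunits and for proteins that modify Gal4, 2 were called higher and 6 lower, beside 27.1% and 47.8% of all probe sets. After centring 3 were higher and 5 lower, beside 43.6% and 41.7% of all probe sets. The genes called higher include PGD1, the overexpressed gene itself, whose rise was set by the design. Besides PGD1, the largest called differences were in the SAGA genes TRA1 (-0.49) and SPT3 (-0.43) and in MED2 (-0.38), which encodes the partner of Med3. MED15, listed under its other name GAL11 and known as a contact of Gal4, rose by 0.33 (added after its value was seen). GAL2 belongs to the family of hexose transporters, of which HXT2 rose by 2.76, HXT4 by 0.59 and HXT3 by 0.16, while HXT7, whose probe set is of a shared type, fell by 0.19. GAL2 itself, with -0.087, did not pass the test.

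**Figure D4:**
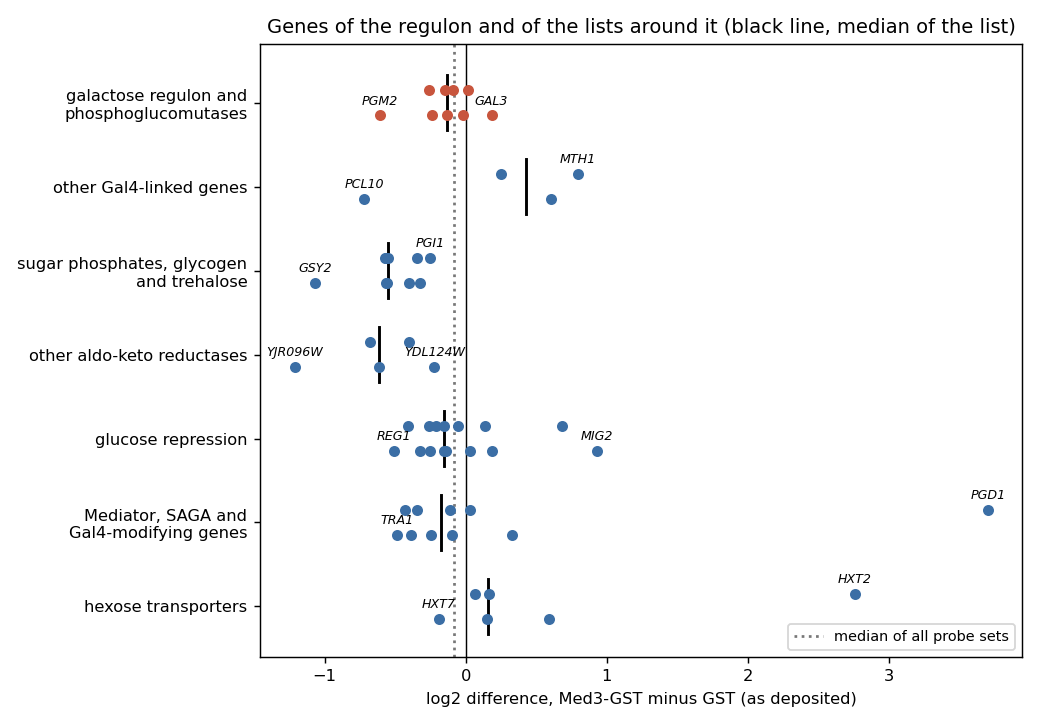
Log2 difference between the groups (horizontal axis, Med3-GST minus GST, as deposited) for each of the 9 genes (red) and of 6 lists around them (blue), with the median of each list as a black line and that of all probe sets dotted. The lists of sugar phosphate genes and of aldo-keto reductases lie wholly below zero. The 9 genes run from -0.61 (the phosphoglucomutase gene PGM2) to 0.18 (GAL3), and the lowest apart from the phosphoglucomutases is GCY1 (-0.24).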

How the data were processed

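The authors hybridized RNA of 6 cultures to Affymetrix arrays and deposited a log10 signal for every probe set on each array (10 raised to the value had at most 2 decimals in 100% of cases). They state a normalization within each experiment. None of the sources used here gives its kind, the background correction or the probe summary. Values were turned into log2 with no added scaling. Of 10928 probe sets, 5498 were annotated to S. cerevisiae and tested in limma 3.58.1 (R 4.3.3), and 1747 for S. pombe served as background. Names follow assembly R64. Where a gene had several probe sets the brightest was to be used. The members, the gene lists, the tests and the alternatives were chosen with earlier results of these data known. The named genes were all members, up to 4 called genes of each list with the largest differences (all genes of lists with 4 or fewer), and the 5 genes closest to the member with the largest difference. No set test was run. The procedure was tested on simulated arrays in which few probe sets changed and no median shift separated the groups. Such arrays cannot show how the scaling of the deposited arrays affects the calls. Signals of different probe sets cannot be compared as transcript amounts, and the number of arrays limits the precision. No sequences were used here.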

Additional observations from a re-analysis of the deposited data

How the results depend on the processing

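Values were recomputed with each array centred on its median, with quantile normalization, with the median S. pombe signal subtracted (floor of 16 units) before centring, with a variance trend, with the variance of each probe set alone, without dim probe sets, with a replicate block and without each array in turn. Array weights could not be used, because their estimation stopped before it converged, and the mean over probe sets was not run because every gene had 1 probe set. GAL3, GCY1, PGM1 and PGM2 kept their direction and their call under all of these, with log2 differences of 0.16 to 0.30, -0.27 to -0.14, -0.30 to -0.16 and -0.63 to -0.51. For GAL1 the log2 difference was 0.077 after centring, 0.023 after quantile normalization and 0.083 after background subtraction with centring, and without single arrays it ran from -0.055 to 0.010. For GAL2 it was 0.008 after centring and 0.014 after background subtraction with centring, and it passed the test at -0.053 after quantile normalization. GAL7 passed as higher after centring (0.11), quantile normalization (0.061) and background subtraction with centring (0.12), and without single arrays it ran from -0.018 to 0.039. The number of members called higher was 3 after centring, 2 after quantile normalization and 3 after background subtraction with centring, and the number called lower was 3 after background subtraction with centring and 3 with the variance of each probe set alone. Without single arrays, 1 member was called higher throughout and 4 to 6 were called lower. The number of all probe sets called higher was 1488 as deposited, 2395 after centring, 2219 after quantile normalization and 2406 after background subtraction with centring. Without single arrays it was 1305 to 1724, when 2434 to 2738 were called lower. As deposited 2629 probe sets were called lower, against 2322 after background subtraction with centring and 2278 with the variance of each probe set alone.

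Replicate B had the lowest median with GST (9.99) and Med3-GST (9.87). Same-letter correlations of within-group deviations over all probe sets (0.044, 0.029 and 0.062) cannot show such offsets. No label names a shared batch. With the replicate block as deposited, GAL2 passed the test as lower (-0.087, adjusted p = 0.0112). With the replicate block and centring, 3 members were called higher and 3 lower, beside 2412 of all probe sets called higher and 2294 lower. The log2 differences of GAL1 and GAL2 were then 0.077 and 0.008, and GAL80 lost its call (-0.052, limma adjusted p = 0.0606).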
